A study of Mus musculus with 38 samples.

Results

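The comparison concerns oligodendrocyte precursor cells (OPCs) with a deleted Bmal1 DNA-binding domain, set against OPCs that kept it, both taken at ZT12, the hour of lights off. It holds 10 of the 38 libraries of the series, found by genotype and zeitgeber time: 4 KO libraries and 6 WT libraries. KO mice were NG2:Cre+;Bmal1fl/fl, and WT mice were NG2:Cre-;Bmal1fl/fl, so both genotypes carried floxed Bmal1 alleles and differed in the Cre transgene. The WT libraries are shown in 2 sets, replicates 1 to 3 and replicates 4 to 6, because these differ in their share of ribosomal RNA counts. All genes of the deposited table were used, of which 22798 passed the filter on low counts. The cells came from forebrains of mouse pups aged 6 to 7 days, kept under 12 h of light and 12 h of dark. They were panned over 2 lectin plates that bind microglia and endothelial cells, then over a plate coated with antibody to PDGFRα, a growth factor receptor of OPCs. Each library pooled 2 mice. NG2, encoded by Cspg4, is also made by pericytes, and the submitters call the allele a hypomorph rather than a null. No Cre-positive group with intact Bmal1 was analysed here, so loss of BMAL1 and presence of the transgene cannot be told apart.

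BMAL1 pairs with CLOCK or NPAS2, and the pair binds E-box sequences (CACGTG) to switch on the Period and Cryptochrome genes, the nuclear receptors Nr1d1 and Nr1d2, and output regulators such as Dbp. PERIOD and CRYPTOCHROME proteins then inhibit the pair, and NR1D1 and NR1D2 repress Arntl, the gene that encodes BMAL1, which closes the loop. In OPCs, which divide and mature into myelin-forming oligodendrocytes, immediate early genes of the AP-1, Egr and Nr4a families are switched on within minutes by growth factors, calcium or handling of the cells.

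The promoters below are shown because their genes are direct outputs of this loop and are described next: Ciart and Per1 hold E-boxes, and Dbp, the clock gene with the smallest p-value, holds none in this window. Each is the 250 bases before the RefSeq start site on GRCm38.p6, written 5′ to 3′ on the gene's own strand, with E-box letters in capitals.
Ciart: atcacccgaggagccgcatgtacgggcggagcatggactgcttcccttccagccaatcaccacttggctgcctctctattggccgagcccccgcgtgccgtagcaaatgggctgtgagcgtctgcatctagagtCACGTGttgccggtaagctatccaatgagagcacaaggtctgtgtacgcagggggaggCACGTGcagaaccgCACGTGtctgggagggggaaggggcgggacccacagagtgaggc
Per1: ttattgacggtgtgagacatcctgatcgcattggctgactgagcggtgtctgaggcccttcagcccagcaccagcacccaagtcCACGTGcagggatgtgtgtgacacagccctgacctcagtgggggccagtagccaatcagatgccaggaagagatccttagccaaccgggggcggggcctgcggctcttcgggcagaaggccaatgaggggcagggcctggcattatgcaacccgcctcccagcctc
Dbp: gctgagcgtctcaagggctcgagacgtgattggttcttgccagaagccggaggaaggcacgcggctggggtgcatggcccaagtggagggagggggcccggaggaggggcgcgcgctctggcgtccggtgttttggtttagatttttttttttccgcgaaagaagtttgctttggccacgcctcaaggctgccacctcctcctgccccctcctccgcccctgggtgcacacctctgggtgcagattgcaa
The Ciart window lies at chr3:95882229-95882478 on the minus strand and holds 3 E-boxes, whose ends lie 110, 52 and 38 bases before the start. The Per1 window, upstream of the first of its 2 listed starts, lies at chr11:69098699-69098948 on the plus strand and holds 1 E-box, 160 bases before the start. The Dbp window lies at chr7:45704997-45705246 on the plus strand. A search of both strands found CACGTG in 1978 of 32851 such windows (6.02%), and in 6 of the 28 windows that matched 19 of the 24 core clock genes. TGACGTCA, the cAMP response element, was found in 1.55% of all windows and TGANTCA, the AP-1 site, in 6.75%. None of the 14 windows of AP-1 and small Maf genes held TGANTCA, and 1 held TGACGTCA. CACGTG was in 4 of these 14 windows and in 4 of 10 windows of Kruppel-like factors, so it was not particular to clock genes. It was in 1 of 12 windows of Egr and Nr4a factors and in 0 of 17 of other immediate early genes. A match describes these letters and no more.

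Totals per library ranged from 22.0 to 28.1 M counts in KO and from 21.4 to 38.1 M in WT. Ribosomal RNA genes took 0.409 to 0.958% of counts in KO, against 0.719 to 1.02% in WT replicates 1 to 3 and 0.0856 to 0.0909% in WT replicates 4 to 6. The libraries also differed in how transcripts rich in G and C were counted. This GC measure is the median log2 deviation of genes whose longest transcript is above 60% GC minus that of genes up to 40% GC. It was -0.74, -0.14, -0.45 and -0.18 in KO replicates 1 to 4, 0.04, 0.05 and 0.17 in WT replicates 1 to 3 and 0.46, 0.41 and 0.35 in WT replicates 4 to 6. Every KO library lay below every WT library, with means of -0.38 in KO and 0.25 in WT (exact two-sided permutation test over 210 splits, p = 0.00476, the smallest it can give). Of 5 library measures put to this exact permutation test, the GC measure had a Benjamini-Hochberg adjusted p of 0.0238. The other 4 gave raw exact p-values of 0.348 for total counts, 0.462 for ribosomal RNA, 0.181 for mitochondrial counts and 0.210 for genes with a count (adjusted 0.435, 0.462, 0.349 and 0.349). Libraries of the other times lay between -0.25 and 0.51, so KO replicates 1 and 3 were below all of them. KO replicate 3 stood apart in a further way: 81 genes with at least 20 counts in each of the other 9 ZT12 libraries had 0 counts in it, against 0 to 3 such genes in any other. It had 19699 genes with a count, and the other 9 had 23363 to 26480. Labels state that both sexes were pooled, yet WT replicates 1 to 4 held 0 counts over 4 Y-linked genes, whereas the KO libraries held 2541 to 4342 and WT replicates 5 and 6 held 4359 and 5091.

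**Figure D1:**
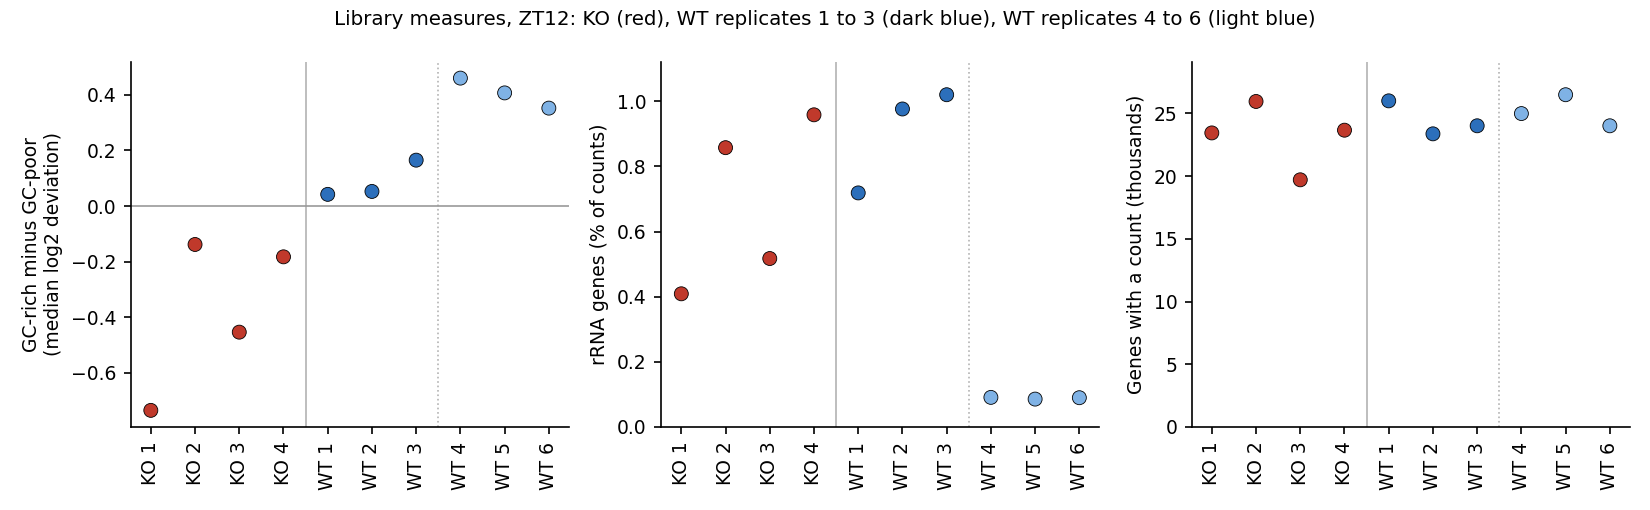
Each point is 1 ZT12 library: the GC measure (log2), ribosomal RNA genes as a share of all counts (%) and the number of genes with a count. KO libraries lie below 0 and WT libraries above 0 in the GC measure; WT replicates 4 to 6 are lowest in ribosomal RNA, and KO replicate 3 has the fewest genes.

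Arntl (ENSMUSG00000055116, chromosome 7, 113207465 to 113314126) was counted at 20.9, 22.8, 21.2 and 23.3 CPM in the 4 KO libraries, against 25.2, 26.2 and 19.5 CPM in WT replicates 1 to 3 and 23.5, 22.4 and 20.2 CPM in WT replicates 4 to 6. CPM are counts for each M (mega) of the scaled library total. The KO values lay inside the WT range, with a log2 fold change of -0.05 (standard error 0.12, adjusted p = 0.857). The series describes removal of the part that encodes the DNA-binding domain, and reads from the undeleted part of the gene are still counted, so this value does not check the genotype labels.

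Across all genes, KO over WT gave 298 genes higher (1.31% of those tested) and 841 lower (3.69%) by edgeR's quasi-likelihood test at a false discovery rate of 0.05. With library size alone as the scaling, 424 were higher and 578 lower. The lower genes include the clock output Dbp, the stress regulator Cebpb and AP-1, Egr and Kruppel-like factors. The higher genes are led by Snx33. Set apart by WT set, 8 genes were higher (0.0339%) and 30 lower (0.127%) against WT replicates 1 to 3, and 593 were higher (2.51%) and 1321 lower (5.6%) against WT replicates 4 to 6. These contrasts share the KO libraries. Of the 8 higher genes, 4 are the Y-linked genes, which have 0 counts in WT replicates 1 to 3. Called against both sets in the same direction were 31 genes, 28 lower and 3 higher. WT replicates 4 to 6 over WT replicates 1 to 3 gave 1 gene higher and 9 lower, with 2406 at an unadjusted p under 0.05.

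The calls moved with transcript GC content. The median log2 fold change was 0.27 for genes up to 40% GC, 0.05 between 45 and 50%, -0.25 between 55 and 60% and -0.45 above 60%. Genes called lower had a median GC of 57.5%, genes called higher 41.9% and genes not called 48.6%. Above 60% GC, 22.9% of genes were called lower and 0.107% higher. WT replicates 4 to 6 over WT replicates 1 to 3 ran the other way, with medians of -0.22 up to 40% and 0.21 above 60%. After a GC adjustment, which removes any difference that follows GC content whatever its source, 18 genes were higher and 55 lower, and 66 of the 1139 genes called before were called in the same direction. Of those 1139, 43 had the opposite sign after it. Without KO replicate 3 the counts were 52 higher and 207 lower, and without KO replicate 1 they were 60 and 199. Without both, or with GC adjustment and without KO replicate 3, Snx33 alone was called. Leaving out WT replicate 4, 5 or 6 gave 122 higher and 440 lower, 147 and 507, and 143 and 478. Since the groups do not overlap in the GC measure, genotype and GC measure cannot be told apart in these libraries.

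**Figure D2:**
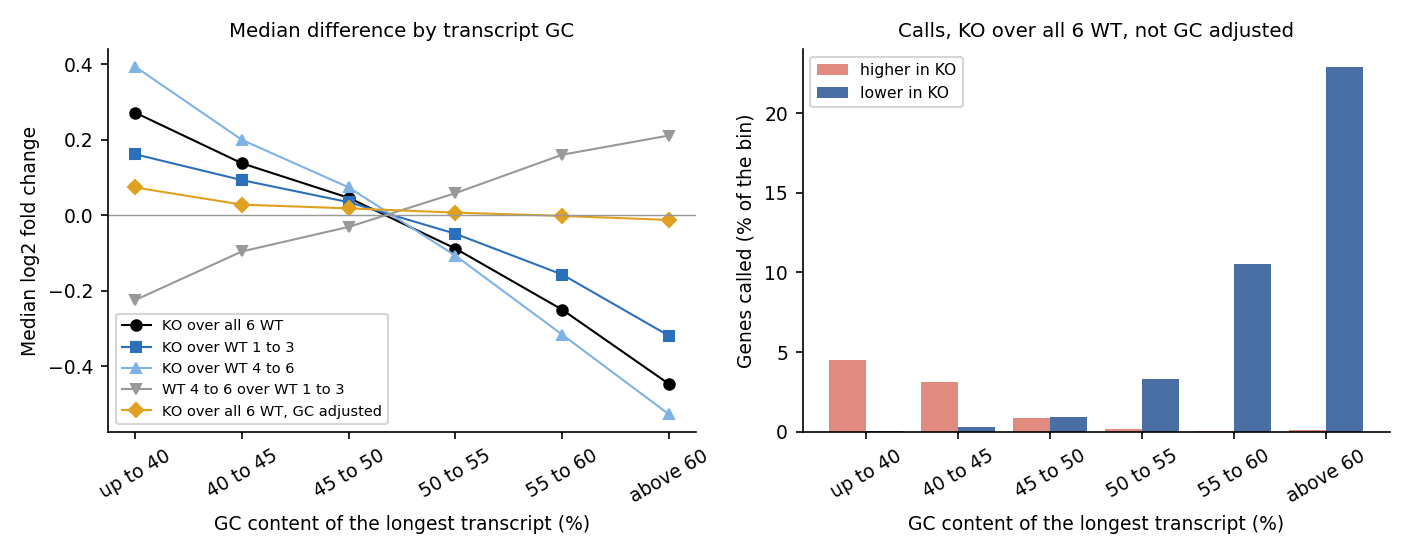
Left, the median log2 fold change in 6 bins of transcript GC content (%) for KO over all WT, over each WT set, WT set over WT set, and KO over all WT after GC adjustment. Right, the share of each bin called higher or lower in KO (%). The KO medians run from 0.27 to -0.45 across the bins, and the adjusted medians stay between 0.07 and -0.01.

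Among the core clock genes, 3 of 24 were called lower (12.5%, beside 3.69% of all genes tested) and 1 higher (1.31% of all genes tested), with a median log2 fold change of -0.13 beside -0.01 over all genes tested. Against WT replicates 1 to 3 alone, 1 was called lower, after GC adjustment 1 and without KO replicate 3 also 1. Over all genes tested, 0.127% were lower against that WT set, 55 of 22780 after GC adjustment and 207 of 23404 without KO replicate 3. Dbp, a PAR bZIP activator that carries the clock signal to output genes, had 7.18, 12.2, 6.83 and 8.93 CPM in KO, against 16.8, 17.8 and 18.3 CPM in WT replicates 1 to 3 and 19.3, 18.6 and 19.1 CPM in WT replicates 4 to 6. Every KO library was below every WT library, and the WT sets lay close together. The log2 fold change was -1.06 (standard error 0.17, adjusted p = 0.000491), and it was -1.01 (adjusted p = 0.0258) against WT replicates 1 to 3 and -1.11 (adjusted p = 0.00051) against WT replicates 4 to 6. Its transcript is 61.6% GC, and after GC adjustment the log2 fold change was -0.66 (adjusted p = 0.0515).

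Nr1d2, a nuclear receptor that represses Arntl, had 44.9, 37.9, 45.6 and 40.8 CPM in KO, against 63.5, 61.1 and 63.7 CPM in WT replicates 1 to 3 and 57.5, 58.5 and 55.5 CPM in WT replicates 4 to 6. Again the groups did not overlap (717 genes tested, or 3.15%, had all KO libraries below all WT libraries). The log2 fold change was -0.50 (standard error 0.14, adjusted p = 0.0357). Its transcript is 41.8% GC, on the side where KO values ran high, and with GC adjustment the difference was -0.63 (adjusted p = 0.0367), so it was the member called after adjustment. Without KO replicate 3 its adjusted p was 0.0802. Nr1d2 was called against neither WT set alone, at -0.57 (adjusted p = 0.146) against WT replicates 1 to 3 and -0.43 (adjusted p = 0.105) against WT replicates 4 to 6. With GC adjustment, its adjusted p against WT replicates 1 to 3 was 0.150. The related receptor gene Nr1d1 had 10.98, 14.6, 16.5 and 18.3 CPM in KO, against 23.96, 28.9 and 22.6 CPM in WT replicates 1 to 3 and 35.1, 22.9 and 25.5 CPM in WT replicates 4 to 6, also without overlap, with a log2 fold change of -0.81 (adjusted p = 0.0472, and 0.317 after GC adjustment). Clock, which encodes the partner of BMAL1, was higher at 118, 87.7, 81.04 and 89.4 CPM in KO, against 85.1, 73.1 and 63.6 CPM in WT replicates 1 to 3 and 67.8, 68.8 and 69.4 CPM in WT replicates 4 to 6 (log2 fold change 0.40, adjusted p = 0.045). KO replicate 3 lay below WT replicate 1 here, and after GC adjustment the log2 fold change was 0.25 (adjusted p = 0.317).

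The other 20 clock genes did not pass the test, though 3 of them had groups that did not overlap. Per1, a Period repressor, had 51.8, 66.8, 84.5 and 76.3 CPM in KO, against 114, 109 and 108 CPM in WT replicates 1 to 3 and 161, 92.6 and 110.1 CPM in WT replicates 4 to 6 (log2 fold change -0.73, adjusted p = 0.112), and WT replicate 4 was far above the rest. Cry1, a Cryptochrome repressor, had 31.6, 30.9, 27.3 and 27.3 CPM in KO, against 23.6, 21.8 and 25.2 CPM in WT replicates 1 to 3 and 26.3, 22.8 and 25.1 CPM in WT replicates 4 to 6 (log2 fold change 0.28, adjusted p = 0.243). It was 1 of 484 genes (2.12% of those tested) with all KO libraries above all WT libraries. Tef, a relative of Dbp, was the third, with KO below WT (log2 fold change -0.12, adjusted p = 0.386). Ciart, whose promoter holds 3 E-boxes and whose protein inhibits the BMAL1 and CLOCK pair, ranged from 7.61 to 21.8 CPM in KO and from 12.5 to 39.1 CPM in WT and overlapped (adjusted p = 0.342). Per2 had a log2 fold change of -0.03 (adjusted p = 0.932) and Per3 of -0.24 (adjusted p = 0.411).

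**Figure D3:**
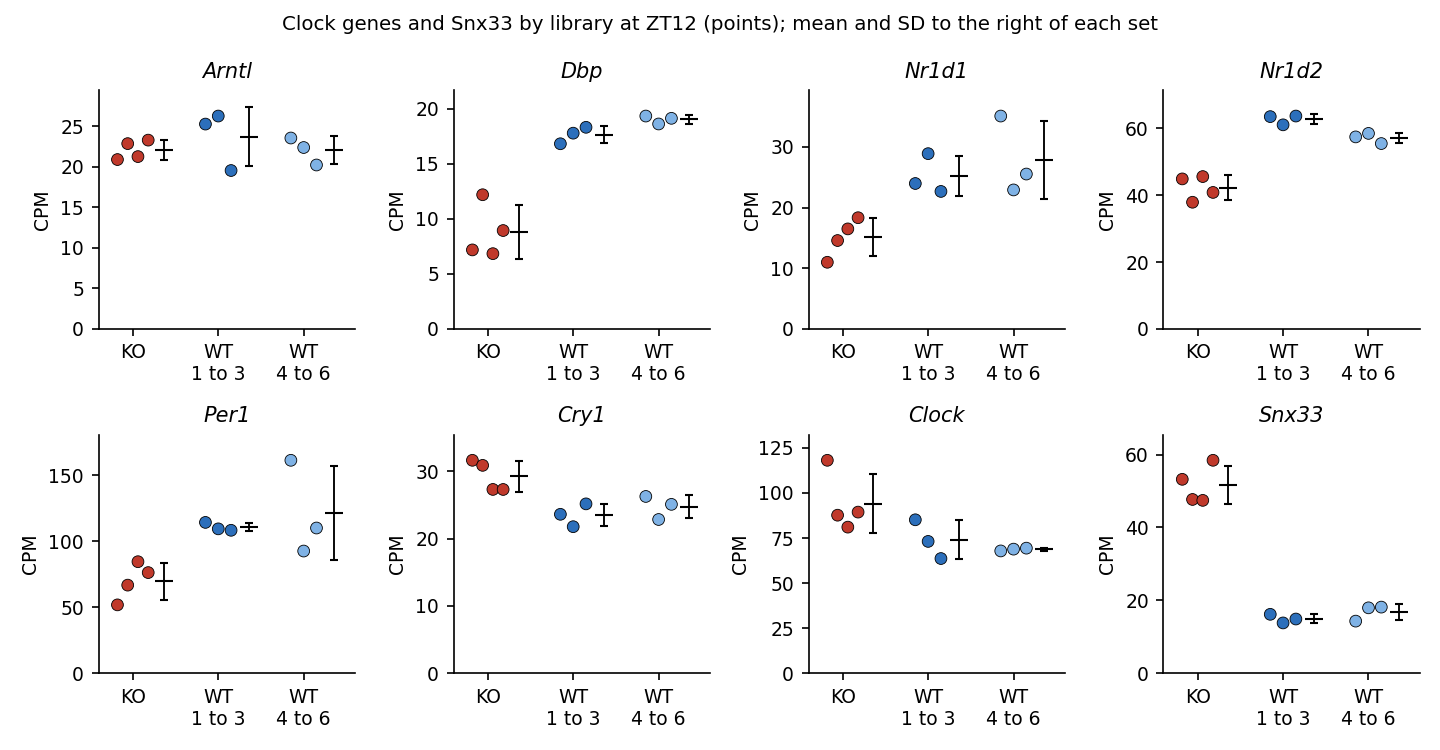
CPM per library at ZT12 for Arntl, 6 other clock genes and Snx33, with KO left of the 2 WT sets, each panel starting at 0; bars are the mean and SD of each set. KO points of Dbp, Nr1d1, Nr1d2 and Per1 lie below all WT points, those of Cry1 and Snx33 above, and those of Arntl among them.

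Snx33, a sorting nexin of membrane traffic (ENSMUSG00000032733, chromosome 9, 56917193 to 56928371), had the smallest p-value. It was counted at 53.2, 47.7, 47.4 and 58.4 CPM in KO, against 16.2, 13.8 and 14.9 CPM in WT replicates 1 to 3 and 14.3, 17.9 and 18.1 CPM in WT replicates 4 to 6. Every KO library lay far above every WT library, and the WT sets overlapped. The mean was 51.7 ± 5.23 CPM in KO (SD, n = 4) and 15.9 ± 1.86 CPM in WT (SD, n = 6), a fold of 3.25 and a log2 fold change of 1.70 (standard error 0.12, adjusted p = 8.25e-12). It was 1.79 against WT replicates 1 to 3, 1.63 against WT replicates 4 to 6 and 1.88 after GC adjustment. Snx33 was called at each time, with a log2 fold change of 2.11 at ZT0, 1.96 at ZT6 and 1.82 at ZT18, and its difference at ZT12 did not pass the test against the other times (adjusted p = 0.237).

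Snx33 lies next to Cspg4, the gene whose promoter drives Cre here, which occupies 56865033 to 56899870 on the same chromosome. Of 6 genes listed in this stretch, 1 was higher and 1 lower, beside 1.31% and 3.69% of all genes tested, and 4 did not pass. Cspg4 itself, an OPC proteoglycan, had 802, 768, 637 and 824 CPM in KO, against 1041, 869 and 956 CPM in WT replicates 1 to 3 and 1325, 1013 and 1163 CPM in WT replicates 4 to 6 (log2 fold change -0.49, adjusted p = 0.0418), and -0.15 (adjusted p = 0.691) after GC adjustment. Imp3, which encodes a ribosomal RNA processing protein and lies beyond Snx33, averaged 34.1 ± 7.47 CPM in KO and 32.2 ± 2.47 CPM in WT at ZT12 (log2 fold change 0.08, adjusted p = 0.807). At ZT0, ZT6 and ZT18 its log2 fold change was 0.96, 0.81 and 0.80 (adjusted p = 0.00464, 0.00423 and 0.0102), and the ZT12 difference was lower than their mean by a test of that difference (-0.78, adjusted p = 0.00149). Odf3l1, on the far side of Cspg4, stayed at or under 0.867 CPM in all 10 libraries. Ptpn9 and Snupn had log2 fold changes of 0.03 and -0.29.

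Many immediate early genes were called lower, and the WT sets stood apart here. Of 13 AP-1 and small Maf factors, 5 were called lower (38.5%, beside 3.69% of all genes tested), with a median log2 fold change of -0.78; the median was -0.42 against WT replicates 1 to 3 and -1.04 against WT replicates 4 to 6. Members were called lower in 0 cases against WT replicates 1 to 3 (0.127% of all genes) and in 9 against WT replicates 4 to 6 (5.6%). After GC adjustment 0 were called lower (55 of 22780 genes tested). Jund, an AP-1 subunit, had 77.6, 148, 82.7 and 144 CPM in KO, against 266, 175 and 177 CPM in WT replicates 1 to 3 and 369, 376 and 435 CPM in WT replicates 4 to 6. The groups did not overlap, and WT replicates 2 and 3 lay nearest to KO. The log2 fold change was -1.41 (standard error 0.22, adjusted p = 0.000491), -0.87 (adjusted p = 0.067) against WT replicates 1 to 3 and -0.77 (adjusted p = 0.0515) after GC adjustment, at a transcript GC of 67.1%.

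Junb, another subunit, had 367, 721, 607 and 524 CPM in KO, against 1190.3, 777 and 575 CPM in WT replicates 1 to 3 and 1650.3, 1416 and 1652 CPM in WT replicates 4 to 6 (log2 fold change -1.13, adjusted p = 0.00994). KO replicates 2 and 3 lay above WT replicate 3, and WT replicates 4 to 6 were highest. Maff, a small Maf protein that pairs with other bZIP factors, had 15.5, 25.6, 36.01 and 28.5 CPM in KO, against 31.7, 43.2 and 32.3 CPM in WT replicates 1 to 3 and 109, 71.99 and 93.7 CPM in WT replicates 4 to 6 (log2 fold change -1.27, adjusted p = 0.0184). KO and WT replicates 1 to 3 overlapped (-0.44, adjusted p = 0.635), and WT replicates 4 to 6 stood above both. Atf3, a stress-induced repressor, and Fosl1 were also lower, with log2 fold changes of -1.12 (adjusted p = 0.0314) and -0.93 (adjusted p = 0.0332). Fos and Jun, the founding members, gave -0.62 (adjusted p = 0.217) and -0.72 (adjusted p = 0.116).

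Of 10 Egr and Nr4a factors with their regulators, 5 were called lower (50%, beside 3.69% of all genes tested). All 10 had negative values, beside 11603 of all 22798 genes tested, with a median of -0.86. Members are measured in the same libraries, so their signs are not independent. The median was -0.73 against WT replicates 1 to 3, and -0.75 after GC adjustment with 0 called. Egr4, a zinc finger factor, had 1.44, 1.72, 1.73 and 2.14 CPM in KO, against 1.98, 5.06 and 5.91 CPM in WT replicates 1 to 3 and 8.99, 5.42 and 10.1 CPM in WT replicates 4 to 6. Only WT replicate 1 lay among the KO values. The log2 fold change was -1.83 (standard error 0.38, adjusted p = 0.00478), and -1.08 (adjusted p = 0.168) after GC adjustment. Egr2 (-0.91, adjusted p = 0.0399), Egr3 (-1.15, adjusted p = 0.0469), the Egr co-repressor Nab2 (-1.01, adjusted p = 0.00635) and Srf (-0.60, adjusted p = 0.0167), which binds serum response elements, were the other members called. Egr1 gave a log2 fold change of -0.77 (adjusted p = 0.124) and Nr4a1 of -0.95 (adjusted p = 0.0596).

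Of 13 Kruppel-like factors, 3 were called lower (23.1%, beside 3.69% of all genes tested). Klf2, a zinc finger factor known for quiescence of vascular and immune cells, had 61.4, 111, 115 and 105 CPM in KO, against 264, 136 and 122 CPM in WT replicates 1 to 3 and 340.4, 331 and 372 CPM in WT replicates 4 to 6 (log2 fold change -1.41, adjusted p = 0.00515). KO lay below every WT library, with WT replicates 2 and 3 closest. Klf4 (-1.12, adjusted p = 0.00853) and Klf16 (-0.93, adjusted p = 0.00451) were the others. Of 10 MAP kinase phosphatases, which switch off the kinases upstream of these genes, 1 was called lower (10%). This was Dusp2 (-0.98, adjusted p = 0.0331). Of 21 other immediate early genes, 8 were called lower (38.1%), with a median of -0.65. All 21 had negative values, beside 11603 of all 22798 genes tested, though members measured in the same libraries are not independent. Those called include Ier5 (-1.13), Csrnp1 (-1.05) and the mRNA-decay or growth-arrest genes Zfp36 (-0.97) and Btg2 (-0.96). Over these 5 lists, no member was called lower against WT replicates 1 to 3 or after GC adjustment. In those settings 0.127% of all genes tested and 55 of 22780 were called lower. With shares this low, the absence of calls does not set the lists apart from other genes. Without KO replicate 3, 4 AP-1 and small Maf factors, 2 Egr and Nr4a factors, 3 Kruppel-like factors and 2 other immediate early genes were called lower. There, 207 of 23404 genes tested were lower. By summed CPM, AP-1 and small Maf factors ranged from 3285 to 4617 in KO, from 3158 to 7009 in WT replicates 1 to 3 and from 8189.9 to 10064 in WT replicates 4 to 6. For this list the KO range thus lay inside that of the first WT set and below the second. In each of the other lists the lowest KO sum lay below every WT library, as for Egr and Nr4a factors (1547 against 1800). By mean log2 CPM, all KO libraries lay below all WT libraries for Egr and Nr4a factors (highest KO 5.28, lowest WT 5.41). The same held for other immediate early genes (6.15 and 6.28), and KO and WT overlapped in the remaining lists.

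**Figure D4:**
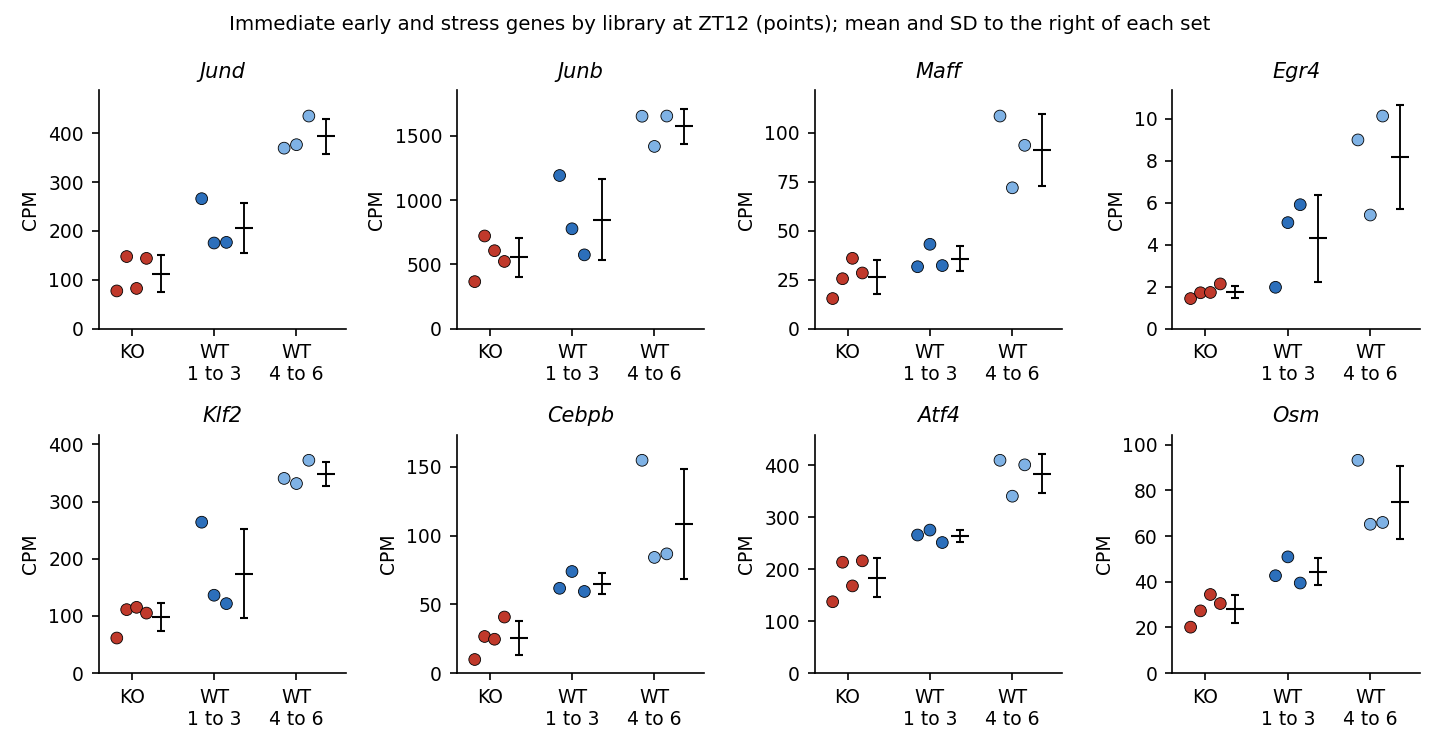
CPM per library at ZT12 for Jund, Junb, Maff, Egr4, Klf2, Cebpb, Atf4 and Osm, with KO left of the 2 WT sets, each panel starting at 0; bars are the mean and SD of each set. WT replicates 4 to 6 are above all KO libraries in each of the 8 genes. WT replicates 1 to 3 lie between or overlap KO, except that WT replicate 3 is above WT replicate 5 for Egr4.

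Stress and cytokine genes were also called lower in part. Of 16 genes of the integrated stress and unfolded protein responses, 3 were called lower (18.8%, beside 3.69% of all genes tested). Of these 3, Atf4 was called after GC adjustment, beside 55 of 22780 genes tested called lower. Cebpb, a bZIP factor induced by stress and cytokines, had 9.93, 26.7, 24.7 and 40.8 CPM in KO, against 61.7, 73.9 and 59.4 CPM in WT replicates 1 to 3 and 155, 84.1 and 86.7 CPM in WT replicates 4 to 6. The groups did not overlap, and WT replicate 4 was far above the other WT libraries. KO over WT was -1.77 on the log2 scale (standard error 0.33, adjusted p = 0.00212), -1.35 (adjusted p = 0.0979) against WT replicates 1 to 3 and -1.14 (adjusted p = 0.0846) after GC adjustment.

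Atf4, the main effector of the integrated stress response, had 137, 213, 168 and 216 CPM in KO, against 266, 275 and 251 CPM in WT replicates 1 to 3 and 409.6, 341 and 401 CPM in WT replicates 4 to 6 (log2 fold change -0.82, adjusted p = 0.00303). It too had no overlap, and its difference was -0.52 (adjusted p = 0.179) against WT replicates 1 to 3 and -0.62 (adjusted p = 0.0496) after GC adjustment. Its target Ddit3 was also lower (-0.91, adjusted p = 0.0462). Of 17 cytokines and chemokines, 4 were called lower (23.5%, beside 3.69% of all genes tested). They were Osm, Ccl3, Ccl4 and Tnf, with 0 called after GC adjustment and 0 against WT replicates 1 to 3. Over all genes tested, 55 of 22780 and 0.127% were called lower in those settings. Osm, a cytokine made by myeloid cells, had 20.1, 27.3, 34.4 and 30.5 CPM in KO, against 42.6, 50.9 and 39.4 CPM in WT replicates 1 to 3 and 93.1, 65.2 and 65.9 CPM in WT replicates 4 to 6 (log2 fold change -1.08, adjusted p = 0.0118). The highest KO library lay just below the lowest WT library. Of 15 NF-kB subunits and feedback inhibitors, 2 were called lower (13.3%), Rela (-0.51) and Nfkbib (-0.60). The list median was -0.04 against WT replicates 1 to 3. Heat shock chaperones had 1 of 14 called, a higher one, beside 1.31% of all genes tested called higher. This was the co-chaperone Chordc1, at 83.6, 66.9, 86.3 and 67.2 CPM in KO. It had 68.8, 61.5 and 61.6 CPM in WT replicates 1 to 3 and 58.2, 60.3 and 59.4 CPM in WT replicates 4 to 6 (log2 fold change 0.30, adjusted p = 0.0353). KO replicates 2 and 4 lay below WT replicate 1, and after GC adjustment the value was 0.07.

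The libraries held the defining RNA of OPCs and also that of microglia. Pdgfra, the receptor used for panning, ranged from 3654 to 4976 CPM in KO and from 3610.0 to 4510 CPM in WT and did not pass the test (log2 fold change 0.03, adjusted p = 0.921). The 20 microglia and macrophage markers summed to 8269 to 15044 CPM in KO, against 7618 to 13706 in WT replicates 1 to 3 and 11497 to 13225 in WT replicates 4 to 6. None of the 20 was called and their median log2 fold change was -0.01. In bulk RNA, fewer cells of a type and less RNA per cell cannot be told apart. Endothelial markers (13 tested) summed to 78.3 to 122 CPM in KO and 87.5 to 144 CPM in WT, with none called. None was called among 14 astrocyte, 20 neuron, 12 choroid plexus and ependymal or 8 red blood cell markers. Every marker tested in these lists had a count in at least 1 ZT12 library. Of the mural and fibroblast markers, 13 of 14 had negative values, beside 11603 of all 22798 genes tested, with a list median of -0.91. Called lower was 1 of the 14 (7.14%, beside 3.69% of all genes tested). This was Myh11, a smooth muscle myosin, at 0, 0.293, 0 and 0.329 CPM in KO (adjusted p = 0.0367). It had 0.544, 1.94 and 1.57 CPM in WT replicates 1 to 3 and 0.604, 0.968 and 0.349 CPM in WT replicates 4 to 6. The list summed to 188 to 421 CPM in KO, 309 to 546 in WT replicates 1 to 3 and 262 to 1620.4 in WT replicates 4 to 6. Col1a1 was at 441 CPM in WT replicate 5 and between 28.7 and 136 CPM in the other 9 libraries. The part of mural and fibroblast RNA in the other differences was not tested.

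OPC and early oligodendrocyte genes gave some calls. Of 20 OPC markers, 4 were called lower (20%, beside 3.69% of all genes tested), with a median of -0.22. After GC adjustment 0 were called lower (median -0.02), and without KO replicate 3 there were 2. Over all genes tested, 55 of 22780 and 207 of 23404 were called lower in those settings. C1ql1, a secreted C1q-family protein of OPCs, had 112, 196, 95.8 and 197 CPM in KO, against 231, 245 and 336 CPM in WT replicates 1 to 3 and 402, 294 and 339 CPM in WT replicates 4 to 6. The groups did not overlap, and KO replicates 1 and 3, lowest in the GC measure, were the lowest. KO over WT was -1.03 on the log2 scale (standard error 0.17, adjusted p = 0.000774), and -0.85 (adjusted p = 0.0437) against WT replicates 1 to 3. At a transcript GC of 65.8%, the adjusted log2 fold change was -0.47 (adjusted p = 0.0566). Emid1, an extracellular matrix protein, had 103, 111, 91.6 and 122 CPM in KO, against 152, 157 and 152 CPM in WT replicates 1 to 3 and 233, 138 and 152 CPM in WT replicates 4 to 6 (log2 fold change -0.62, adjusted p = 0.00294). WT replicate 4 was far above the others. Cspg4, given above, and Lims2 (-0.46) were the others called.

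Of 14 markers of committed oligodendrocytes, 4 were called lower (28.6%, beside 3.69% of all genes tested), with a median of -0.26. None was called after GC adjustment or without KO replicate 3, settings that called 55 of 22780 and 207 of 23404 genes lower. Neu4, a sialidase, had 45.3, 41.97, 39.1 and 30.5 CPM in KO, against 57.7, 66.7 and 64.8 CPM in WT replicates 1 to 3 and 76.9, 63.02 and 64.7 CPM in WT replicates 4 to 6 (log2 fold change -0.74, adjusted p = 0.0316), without overlap. Myrf, the transcription factor that starts myelin gene expression, gave -0.52 (adjusted p = 0.0197), Bmp4 -0.97 (adjusted p = 0.0251) and the deacetylase Sirt2 -0.43 (adjusted p = 0.00635). None of 13 myelin genes was called, with a median of -0.19.

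**Figure D5:**
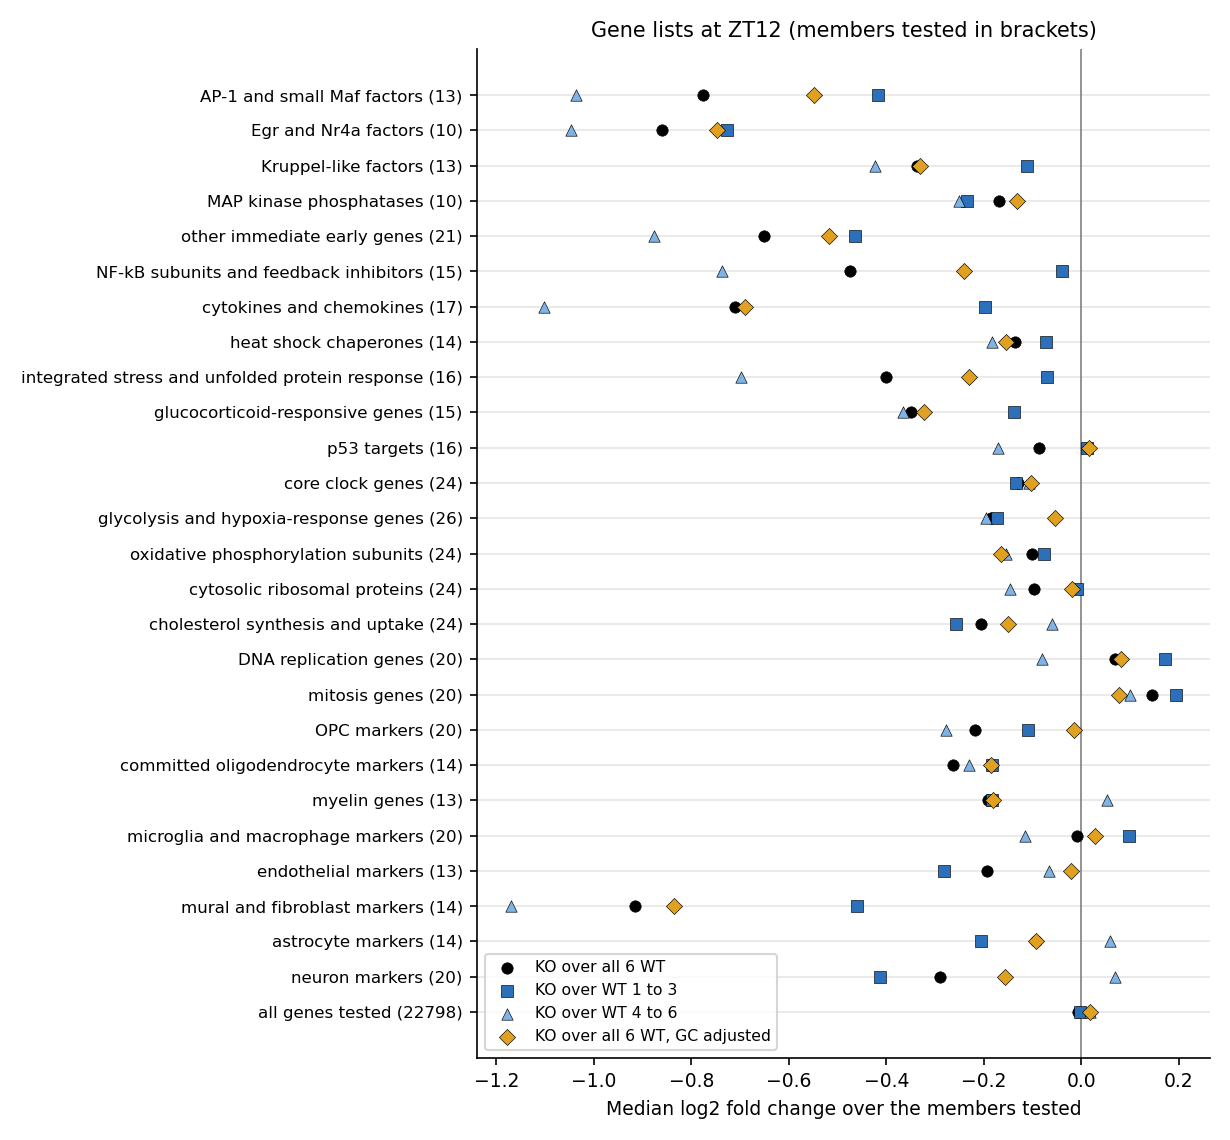
The median log2 fold change over the tested members of each gene list drawn and over all genes tested, for KO over all 6 WT libraries, over WT replicates 1 to 3, over WT replicates 4 to 6 and over all 6 after GC adjustment. Not drawn are sex-linked genes, red blood cell markers, nuclear-retained long noncoding RNAs, Cspg4 neighbours, and choroid plexus and ependymal markers. Mural and fibroblast markers (-0.91), Egr and Nr4a factors (-0.86), AP-1 and small Maf factors (-0.78) and cytokines (-0.71) have the lowest medians, and all 4 lie closer to 0 against WT replicates 1 to 3.

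Genes called against both WT sets also fell outside the clock and early lists. Rrp9, a protein of the small nucleolar complex that processes ribosomal RNA, had 13.1, 14.2, 12.5 and 12.4 CPM in KO, against 20.7, 20.3 and 22.7 CPM in WT replicates 1 to 3 and 26.2, 21.2 and 23.1 CPM in WT replicates 4 to 6. KO libraries lay close together and below every WT library. This was a log2 fold change of -0.78 (standard error 0.11, adjusted p = 0.000103), -0.70 (adjusted p = 0.0135) against WT replicates 1 to 3 and -0.42 (adjusted p = 0.0292) after GC adjustment. Mark4, a kinase of microtubule-associated proteins, had 46.6, 66.7, 54.7 and 58.6 CPM in KO, against 82.3, 78.4 and 81.5 CPM in WT replicates 1 to 3 and 98.1, 95.9 and 91.03 CPM in WT replicates 4 to 6 (log2 fold change -0.63, adjusted p = 0.000241, and -0.26 with 0.0292 after GC adjustment). Pcsk1n, which encodes the inhibitor of a prohormone convertase, had 75.3, 137, 89.02 and 139 CPM in KO, against 162, 191 and 218 CPM in WT replicates 1 to 3 and 298, 212 and 261 CPM in WT replicates 4 to 6 (log2 fold change -1.02, adjusted p = 0.000491, and -0.78 with 0.00574 after GC adjustment). KO replicates 1 and 3 were again lower than KO replicates 2 and 4.

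Bambi, a decoy receptor that dampens BMP and TGF-beta signals, had 4.07, 4.13, 2.91 and 2.35 CPM in KO, against 6.72, 6.12 and 7.83 CPM in WT replicates 1 to 3 and 7.18, 8.90 and 7.52 CPM in WT replicates 4 to 6. The KO and WT ranges did not meet, and the log2 fold change was -1.13 (standard error 0.20, adjusted p = 0.00138). At 43.97% GC, its difference did not shrink with GC adjustment (-1.23, adjusted p = 0.00316). Faim2, an inhibitor of Fas-driven cell death, gave -0.93 (adjusted p = 0.000892), with -0.79 (adjusted p = 0.0166) after GC adjustment. Prrt3 gave -1.15 (adjusted p = 0.00112) and Ankrd9 -1.31 (adjusted p = 0.00461), with 0.0337 and 0.0967 as their adjusted p after GC adjustment. Among rarely counted genes, Oas1c, of the interferon-induced oligoadenylate synthetase family, had 1 count in all over the 4 KO libraries, against 113 over the 6 WT libraries (adjusted p = 0.00273). Lck, a T cell kinase, had 11 counts in KO and 184 in WT (adjusted p = 0.00495). For both, every KO library was below every WT library.

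Of genes that were higher, Snx33, Brcc3 and Casp2 were called against both WT sets. Brcc3, a deubiquitinase of DNA repair complexes, had 49.2, 46.5, 55.5 and 44.4 CPM in KO, against 33.8, 33.8 and 36.9 CPM in WT replicates 1 to 3 and 29.5, 25.4 and 30.9 CPM in WT replicates 4 to 6 (log2 fold change 0.63, adjusted p = 0.000491, and 0.39 with 0.0431 after GC adjustment). Casp2, a protease of the cell death pathway, had 77.4, 57.7, 71.8 and 56.98 CPM in KO, against 49.7, 49.8 and 47.9 CPM in WT replicates 1 to 3 and 47.1, 52.1 and 49.98 CPM in WT replicates 4 to 6 (log2 fold change 0.42, adjusted p = 0.00175, and 0.39 with 0.00948 after GC adjustment). Neither overlapped. Trdmt1, an RNA methyltransferase, was higher by 0.74 on the log2 scale (adjusted p = 0.00271), and the coagulation factor gene F9 by 1.09 (adjusted p = 0.0416). Against WT replicates 1 to 3 their adjusted p was 0.0955 and 0.246, and after GC adjustment it was 0.0488 and 0.183. Srp54b, a signal recognition particle gene, was higher by 1.94 on the log2 scale (adjusted p = 0.045, with 0.219 against WT replicates 1 to 3 and 0.146 after GC adjustment). It ranged from 8.34 to 29.1 CPM in KO and from 1.31 to 11.1 CPM in WT and overlapped. It is 1 of a family of near-identical copies, so its reads cannot be assigned with certainty.

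Proliferation genes gave 1 call, a higher one, beside 1.31% of all genes tested called higher. Of 20 mitosis genes, Bub1, a spindle checkpoint kinase, was higher at 50.1, 45.3, 61.4 and 43.2 CPM in KO, against 39.5, 34.6 and 34.5 CPM in WT replicates 1 to 3 and 35.7, 38.6 and 39.8 CPM in WT replicates 4 to 6 (log2 fold change 0.43, adjusted p = 0.0228), without overlap, and it gave 0.29 (adjusted p = 0.251) after GC adjustment. None of 20 DNA replication genes was called. Among 24 oxidative phosphorylation subunits 3 were lower (12.5%), among 24 cytosolic ribosomal proteins 2 (8.33%) and among 24 cholesterol genes 2 (8.33%), beside 3.69% of all genes tested. Of the 24 cholesterol genes, 23 had negative values, beside 11603 of all 22798 genes tested. None of these was called after GC adjustment, which instead called Rps6, a ribosomal protein, higher. Over all 22780 genes, that adjustment left 55 lower and 18 higher. Srebf2, the master regulator of cholesterol synthesis, gave -0.33 (adjusted p = 0.0199) and -0.06 after GC adjustment. Of 26 glycolysis and hypoxia genes 1 was lower (3.85%), of 16 p53 targets 2 (12.5%) and of 15 glucocorticoid-responsive genes 1 (6.67%). Of 8 nuclear-retained long noncoding RNAs none was called.

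Whether these differences belong to ZT12 was asked by testing the KO over WT difference at ZT12 against the mean of the differences at ZT0, ZT6 and ZT18. This gave 1510 genes higher (6.62%) and 2279 lower (10%). The test uses the same ZT12 libraries as the calls above, so genes called at ZT12 are not independent of it. The GC measure ran the other way at ZT18, at 0.41 to 0.51 in KO and -0.09 to 0.05 in WT. The median log2 difference of this test was 0.50 for genes up to 40% GC and -0.61 above 60%. Transcripts of Dbp, Gnas and Atp5k, given next without GC adjustment, are 61.6, 57.8 and 55.8% GC. Dbp passed it, at -1.06 (adjusted p = 0.000311): its log2 fold change was 0.01 at ZT0, -0.29 at ZT6 and 0.27 at ZT18. Nr1d2 did not, at 0.07 (adjusted p = 0.824), with -0.67 at ZT0, -0.59 at ZT6 and -0.45 at ZT18. Gnas, which encodes the stimulatory G protein alpha subunit, had 27.3, 51.4, 18.6 and 69.8 CPM in KO, against 73.1, 85.4 and 83.6 CPM in WT replicates 1 to 3 and 113, 114 and 107 CPM in WT replicates 4 to 6 at ZT12, and its log2 difference relative to the other times was -1.75 (adjusted p = 2.16e-05). KO replicates 1 and 3 were the lowest. Atp5k, a subunit of ATP synthase, had 2.19, 6.66, 1.98 and 5.48 CPM in KO, against 10.5, 10.4 and 11.6 CPM in WT replicates 1 to 3 and 10.3, 14.5 and 12.8 CPM in WT replicates 4 to 6, with a log2 difference relative to the other times of -2.46 (adjusted p = 2.16e-05). The counts of this test were 391 higher and 821 lower with WT replicates 1 to 3 alone, 801 and 778 after GC adjustment, and 17 and 73 without the 8 low-rRNA libraries of the series. Those 8 include all KO libraries of ZT18, so ZT18 drops out of that last test.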

How the data were processed

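RNA was measured in 38 libraries of panned mouse OPCs in 8 groups of genotype and time, and the comparison used the 4 KO and 6 WT libraries of ZT12. The authors deposited raw counts per gene (54532 genes, 1 column per library, replicates not pooled), per the submitters' processing notes with featureCounts 1.5.0-p3, HISAT2 2.0.5 and fastp, and GRCm38 (mm10) as the build. Neither the annotation release nor the strand setting is stated there, so overlapping or antisense genes may share reads. No sample column was left unused (0).

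Counts were tested with edgeR 4.0.16 (R 4.3.3): TMM scaling, filterByExpr by group, quasi-likelihood fit over all 8 groups, two-sided, Benjamini-Hochberg adjustment over all 22798 genes tested, called at an adjusted p under 0.05. CPM were computed on TMM-scaled totals. A fit with 9 groups, in which WT ZT12 was split by ribosomal RNA share, tested 23604 genes. GC adjustment, chosen after seeing the data, used a lowess per library (span 0.3) of log2 CPM deviation on the GC content of the longest GENCODE transcript as an offset. The fits were also run on simulated counts with a common mean per gene and group, with and without a GC factor per library. Those counts did not hold the genes missing from KO replicate 3 or other differences between the WT sets. No 2 libraries of a group agreed within sampling noise (smallest chi-square per degree of freedom 16.5 over 21 pairs). P-values measure the spread between these pools of 2 mice.

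Genes named are Arntl, the core clock genes, the 12 called genes of largest log2 fold change in each direction (mean log2 CPM above 1), the 10 of smallest p, up to 10 in each direction called against both WT sets (by the smaller difference), the 10 of smallest p in the test against other times, and up to 4 of smallest p per list (all called members of immediate early lists). The text gives some of these. The members and lists were chosen with earlier results of these data known. A few others were named after their values were seen. Alternatives covered scaling, the filter, DESeq2 1.42.0, limma-voom (limma 3.58.1), the replicate block, each ZT12 library left out, and library subsets. Promoters are from RefSeq on GRCm38.p6.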

Additional observations from a re-analysis of the deposited data

Results flagged for a closer look

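Single libraries stood far from the rest of their group in 8 of the 84 groups of values examined, and chance flags about 1 in 20. WT replicate 4 was highest in 3 of them: Per1 at 161 CPM (next 114), Cebpb at 155 CPM (next 86.7) and Emid1 at 233 CPM (next 157). Chordc1 was at 68.8 CPM in WT replicate 1 (next 61.6), Lck at 2.28 CPM in WT replicate 3 (next 1.146), and Col1a1 at 441 CPM in WT replicate 5 (next 136). Oas1c was at 0.0366 CPM, a single count, in KO replicate 2 and at 0 in the other KO libraries. KO replicate 3 had 81 genes at 0 that held at least 20 counts in each other ZT12 library, against at most 1 in the other KO libraries.

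The KO over WT difference at ZT12 was tested against the mean of the other 3 times, which gave 1510 genes higher and 2279 lower. The median log2 difference of this test was 0.50 for genes up to 40% GC and -0.61 above 60%. Among named genes, the log2 difference relative to the other times was -0.99 for Rrp9, -0.84 for Mark4, -1.41 for Pcsk1n, -1.04 for Dexi and -1.75 for Gnas. It was -1.02 for Basp1, -0.78 for Gpr137, -0.93 for Gtf2f1, -2.46 for Atp5k and -0.996 for Map7d1.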

How the results depend on the processing

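Counts of KO over WT calls, 298 higher and 841 lower, depended on the processing. Higher and lower were 376 and 708 with RLE scaling, 424 and 578 with library size alone, 124 and 678 without a filter, 607 and 1039 by DESeq2, 458 and 1019 by limma-voom, 42 and 103 with the 10 ZT12 libraries alone, 8 and 30 with WT replicates 1 to 3, 593 and 1321 with WT replicates 4 to 6, and 172 and 641 without the 4 single-sex libraries. With GC adjustment they were 18 and 55, and with that also 1 and 0 without KO replicate 3 (2183 genes at an unadjusted p under 0.05), 1 and 0 with WT replicates 1 to 3 (2117) and 95 and 149 with WT replicates 4 to 6. KO replicates 2 and 4 against WT replicates 1 to 3 gave 1 and 0 (1235), and leaving out KO replicates 1 and 3 gave 1 and 0 (2213), all by edgeR. Those GC and library-pair settings were chosen after seeing the data. Leaving out 1 ZT12 library gave 52 to 360 higher and 199 to 1006 lower. The test against other times gave 391 and 821 with WT replicates 1 to 3, 17 and 73 without the 8 low-rRNA libraries, 801 and 778 with GC adjustment, and 978 to 1619 and 1447 to 2395 with 1 ZT12 library left out. The cause was not tested. Of 94 named genes called, 18 were called with WT replicates 1 to 3 and 19 with GC adjustment. Some of the 94 were named because they were called against both WT sets, so these shares do not hold for all calls. Of all 1139 genes called, 32 were called in the same direction with WT replicates 1 to 3 and 66 with GC adjustment. Chordc1 reversed to -0.0154 (adjusted p = 0.974) with GC adjustment and without KO replicate 3.

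With the replicate number within each time as a block, the replicate block fit called 32 higher and 227 lower. WT replicates 5 and 6 have no KO library of the same number at ZT12. They thus add nothing to the KO over WT difference in that fit. Same-numbered KO and WT libraries correlated at 0.17, -0.11, -0.18 and 0.02 in their deviations, which gave no sign of pairing by number. KO replicate 1 correlated best with WT replicate 1, and KO replicates 2, 3 and 4 with WT replicates 5, 6 and 3. These values do not exclude a pairing that the labels leave out. At these totals, low genes such as Oas1c and Lck rest on few counts.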
